A study of Homo sapiens with 70 samples.

Results

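The change with doxycycline (DOX) after 5 hr in pancreatic cancer cells that carry the guide RNA sgZBTB11-1 was measured in 6 libraries of 70, namely 3 with DOX and 3 with DMSO, chosen by their labels. The cells are MIA PaCa-2, an established line of pancreatic ductal adenocarcinoma, and are resistant to sotorasib, a cancer drug. Inducing dCas9-KRAB, a catalytically dead Cas9 joined to a repressor domain, was the study's means of lowering ZBTB11, and the series has 3 guides, DMSO or DOX, and the times 5 hr, day 1, day 3 and day 5. The other groups used here are sgZBTB11-2, a guide against ZBTB11, and the control guide sgNS, each with DMSO and with DOX at 5 hr (3 libraries a group), and sgZBTB11-1 with DMSO and with DOX at day 1 (3 libraries each). All of these cells share the line, the resistance and the dCas9-KRAB system, and DOX was given to the control guide as well. Nothing in the labels ties the libraries of a group to separate cultures, so p-values speak only of how these libraries differ among themselves, and that spread may be technical. The labels do not say how many clones the line holds.

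ZBTB11 is a zinc finger transcription factor with a BTB domain that is needed for the expression of nuclear genes for mitochondrial complex I and mitochondrial translation. The inducer itself is an antibiotic that binds the bacterial small ribosomal subunit and can slow translation inside mitochondria. A change with DOX at 5 hr is therefore read here beside the same change in cells with the control guide, where no ZBTB11 site is targeted.

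The 6 libraries held 14047881 to 18313254 counts and the 18 libraries of 5 hr together gave 15623 genes with enough counts to test. Levels are given as CPM, counts scaled to library size with the TMM method, and changes as log2 of DOX over DMSO from edgeR's quasi-likelihood test over all 18 libraries, with p-values adjusted by the Benjamini-Hochberg method and a threshold of 0.05. Of the markers of the line, KRT8, KRT18, KRT19 and VIM had counts in every library and CDKN2A was at 0 in all 6, whereas KRT7, CDH1 and EPCAM had at most 5 counts in any. Of 22 markers of blood, endothelial, fibroblast, liver and pancreatic cells, 8 were at 0 in all 6 libraries and 18 had at most 10 counts in any, and their sum was 38.7 to 40.5 CPM with DMSO and 38.9 to 42.4 with DOX. The endothelial cadherin CDH5 made up most of that sum, and of the 4 markers that could be tested only the macrophage marker CD68 rose, from 2.18 to 3.6 CPM on average, a call that was lost without DMSO replicate 1 or without DOX replicate 2. In such bulk samples fewer cells with a transcript and less of it per cell cannot be told apart.

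The target gene itself did not pass the threshold at this time. ZBTB11 (ENSG00000066422.7, GRCh38.p14 chromosome 3, 101648889 to 101677132, minus strand) was at 54.3, 50 and 54.2 CPM with DMSO and at 52.1, 53.3 and 52.9 CPM with DOX. The groups overlapped, and the log2 change was -0.00 (SE 0.045, adjusted p = 0.962, edgeR). With the trend over transcript length and GC content removed the change was -0.13 and passed the threshold (adjusted p = 0.0141), so the statement that ZBTB11 mRNA did not change at 5 hr depends on that step. The same gene rose by 0.17 in sgNS and fell by 0.17 in sgZBTB11-2. The difference of its change between sgZBTB11-1 and sgNS did not pass the threshold. At day 1 it fell by 0.28 in sgZBTB11-1 (adjusted p = 0.000773, edgeR). ZBTB11-AS1, the antisense gene at its start, was at 2.26, 2.62 and 2.27 CPM with DMSO and at 2.07, 2.95 and 2.42 with DOX, a change of 0.06 (adjusted p = 0.846), and without the strand setting of the counting its reads and those of ZBTB11 cannot be told apart.

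The sequence before the start of ZBTB11 is shown because a repressor of this kind acts near the start site, although the place of the guide within it is not given in the sources used here. The 250 bases before the RefSeq start (GRCh38.p14, chr3:101677133-101677382, minus strand, 5′ to 3′) hold 1 TGACGTCA, the full cyclic AMP response element, in capitals, whose first base lies 112 bases before the start.
ZBTB11 promoter: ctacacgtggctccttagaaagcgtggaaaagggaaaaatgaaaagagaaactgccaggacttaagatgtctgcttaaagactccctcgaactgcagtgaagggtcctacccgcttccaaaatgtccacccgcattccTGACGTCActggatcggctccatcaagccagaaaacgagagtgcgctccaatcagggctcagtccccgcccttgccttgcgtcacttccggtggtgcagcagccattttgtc

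Searched on both strands, TGACGTCA was found in 1.65% of 35116 promoters of the same length. A match of letters describes the sequence and is no evidence of a bound factor.

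Around ZBTB11, 4 of the 9 tested genes of the list of ZBTB11 and its neighbours rose and 1 fell, beside 17.4% and 15.4% of all genes tested. TRMT10C, a subunit of mitochondrial RNase P, was at 53.2, 52 and 52.6 CPM with DMSO and at 62.5, 60.4 and 58.4 with DOX, a rise of 0.20 (SE 0.044, adjusted p = 0.000347). PCNP was at 77.0, 72.8 and 73.5 CPM with DMSO and at 91.0, 87.8 and 85.2 with DOX, a rise of 0.24 (adjusted p = 5.48e-06). In both genes every DOX library lay above every DMSO library, and both fell in sgZBTB11-2, by 0.17 and 0.16, falls that did not pass the threshold with the length and GC trend removed. CEP97, a centrosome protein, rose by 0.41 and NXPE3 by 0.58 (lost without either of 2 libraries), calls that were both lost with that trend removed, while SENP7 (0.23, adjusted p = 0.151) and NFKBIZ (-0.05, adjusted p = 0.672) did not pass. The ribosomal protein gene RPL24 fell by 0.13, a call that was lost without any 1 of the 6 libraries and after removal of the length and GC trend. With that trend removed 2 of the 9 genes rose and 1 fell, and without DMSO replicate 2 or without DOX replicate 3 of sgZBTB11-1 the number past the threshold went from 5 to 3.

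Many genes moved, nearly all by little. DOX changed 5130 of 15623 genes in sgZBTB11-1 at 5 hr (32.8%), with 2717 higher (17.4%) and 2413 lower (15.4%), and 6494 genes had an unadjusted p under 0.05. The median size of the called changes was 0.25 on the log2 scale, 459 reached 0.5 and 68 reached 1. Every DOX library lay above every DMSO library in 3581 genes (22.9%) and below in 3271 genes (20.9%), so that the groups did not overlap in 43.9% of genes tested. The split between directions depended on the scale: with limma on log2 of the deposited TPM plus 1, 3457 genes rose and 739 fell, and the median change over all genes was 0.08 instead of 0.0036. Directions of gene groups below are therefore relative to TMM scaling, and lists described below whose median changed sign on the TPM scale are named.

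Among called genes with a symbol and a mean CPM of at least 5, a pair that overlaps on chromosome 16 had the largest fall and, after the readthrough gene ISY1-RAB43, the largest rise. A long noncoding RNA without a symbol, ENSG00000302966, fell by more (-1.84, adjusted p = 0.00895, mean 7.86 CPM), and genes of lower level reached larger values in both directions. CENPT (ENSG00000102901.13, chromosome 16, 67828157 to 67847693, minus strand), a kinetochore protein that links centromeric chromatin to the microtubule-binding complex, was at 137, 141 and 150 CPM with DMSO and at 334, 348 and 361 CPM with DOX. Its means were 143 ± 6.76 and 347 ± 13.4 CPM (SD, n = 3 each), a rise of 1.28 (SE 0.036, adjusted p = 6.84e-26 in edgeR). Every DOX library held more than 2 times the CPM of any DMSO library. THAP11 (ENSG00000168286.3, chromosome 16, 67842320 to 67844195, plus strand), a zinc finger transcription factor of the THAP family that acts with HCFC1 and ZNF143, lies inside the span of CENPT on the other strand. Its levels were 23, 22.1 and 21.9 CPM with DMSO and 9.73, 8.79 and 9.07 CPM with DOX, a fall of 1.28 (SE 0.075, adjusted p = 3.74e-16). The 3 DOX libraries lay close together and far below the DMSO libraries. Reads of the overlapping stretch cannot be assigned to a strand here, so how much of either value belongs to the other gene cannot be told apart. Both genes moved the same way with the other guides: CENPT rose by 0.87 in sgNS and 1.94 in sgZBTB11-2, and THAP11 fell by 0.85 and 1.23. The rise of CENPT in sgZBTB11-1 was larger than in sgNS (difference 0.41, SE 0.052, adjusted p = 2.21e-06) and smaller than in sgZBTB11-2 (-0.66, adjusted p = 8.17e-13). The fall of THAP11 was larger than in sgNS (difference -0.43, adjusted p = 0.00988), and its difference from sgZBTB11-2 was -0.05 (SE 0.11, adjusted p = 0.806).

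The bases before the start of each of the pair are shown because both genes moved in every guide. They come from RefSeq (GRCh38.p14), each as 250 bases 5′ to 3′ on the strand of its gene: chr16:67847694-67847943 for CENPT, which ends at the base before its start, and chr16:67842070-67842319 for THAP11, which lies within the CENPT gene.
CENPT promoter: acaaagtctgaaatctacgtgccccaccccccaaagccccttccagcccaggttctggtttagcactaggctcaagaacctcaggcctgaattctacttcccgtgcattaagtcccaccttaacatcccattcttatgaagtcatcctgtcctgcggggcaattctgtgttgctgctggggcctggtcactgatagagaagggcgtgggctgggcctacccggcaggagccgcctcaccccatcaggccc
THAP11 promoter: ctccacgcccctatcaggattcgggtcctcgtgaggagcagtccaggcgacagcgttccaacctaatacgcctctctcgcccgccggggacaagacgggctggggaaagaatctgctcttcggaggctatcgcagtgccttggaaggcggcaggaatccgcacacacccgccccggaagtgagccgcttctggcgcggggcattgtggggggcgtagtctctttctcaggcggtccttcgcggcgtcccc

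Neither sequence holds TGACGTCA on either strand, which says only that these letters are absent from these windows.

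Apart from CENPT and THAP11, few genes moved alike in all 3 guides. Past the threshold and in 1 direction with each guide were 7 higher and 16 lower genes, a count defined after the values were seen. The higher genes were CENPT, POLR1F, SLC25A36, POLR2A, MCTS2, NFKB1 and EGR1. POLR1F, a subunit of RNA polymerase I, was at 37.1, 39.9 and 35.1 CPM with DMSO and at 57.1, 59.6 and 59.2 with DOX, a rise of 0.65 (adjusted p = 9.2e-14), beside 0.68 in sgNS and 0.18 in sgZBTB11-2. SLC25A36, which carries pyrimidine nucleotides into mitochondria, rose from 71.7, 73.1 and 74.0 CPM to 105, 106 and 103, a rise of 0.52 (adjusted p = 4.64e-14), beside 0.71 and 0.28. In both genes the DOX libraries lay above all DMSO libraries. Among the lower genes were the NF-kB inhibitor NFKBIA, the potassium channel gene KCNN4 (-0.36), the chemokine CXCL1 (-0.25), the cyclin-dependent kinase subunit CKS2 (-0.27) and the keratin KRT18 (-0.13). After removal of the length and GC trend, 7 of the higher and 12 of the lower genes were still past the threshold in sgZBTB11-1 in the same direction. At day 1, 3 of the 7 and 8 of the 16 were past it in the same direction.

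**Figure D1:**
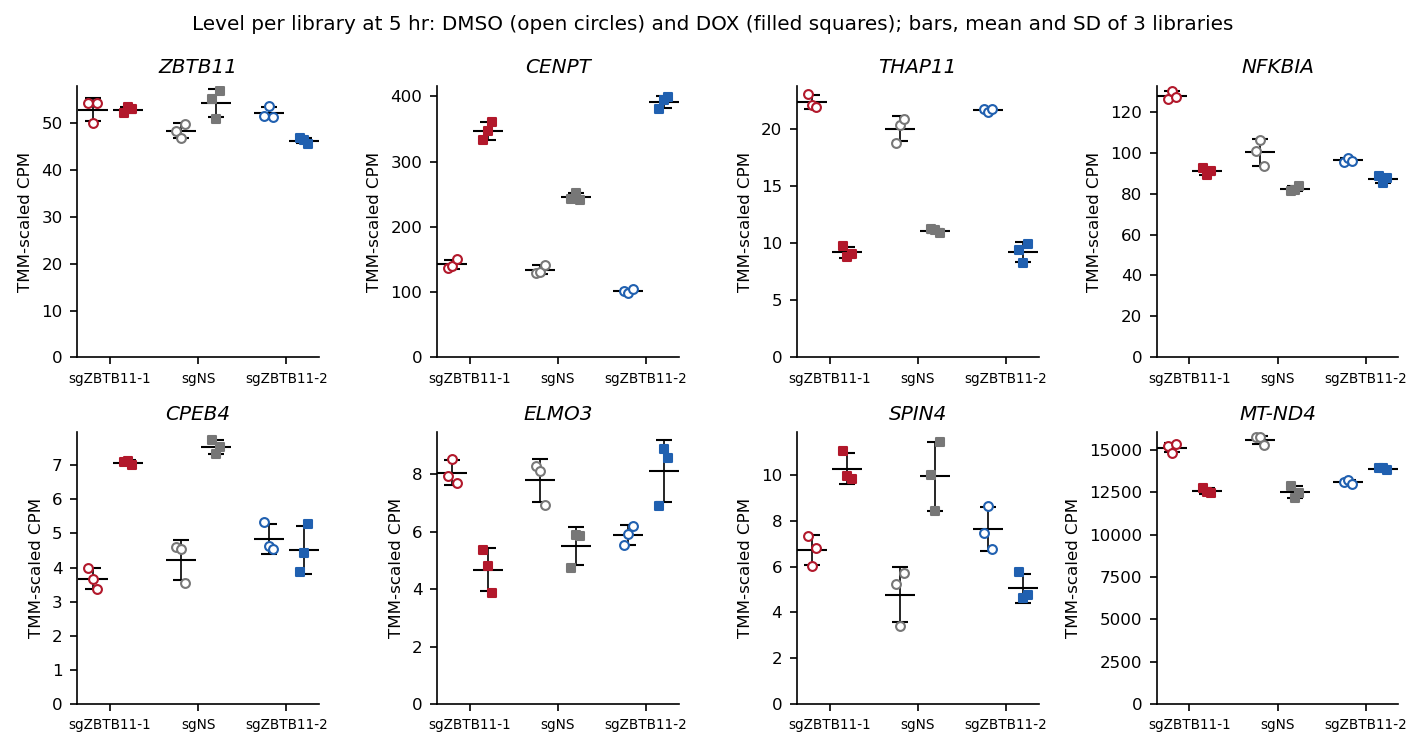
TMM-scaled CPM of 8 genes in each of the 18 libraries at 5 hr, by guide, with DMSO as open circles and DOX as filled squares; bars give the mean and SD of 3 libraries. CENPT, THAP11 and NFKBIA move the same way with every guide, CPEB4 moves with sgZBTB11-1 and sgNS, and ELMO3, SPIN4 and MT-ND4 move in opposite directions with sgZBTB11-1 and sgZBTB11-2.

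The other genes with the largest increases were of low or moderate level. CPEB4, which binds mRNA and controls its poly(A) tail, was at 4, 3.66 and 3.37 CPM with DMSO and at 7.08, 7.13 and 6.99 with DOX, a rise of 0.94 (SE 0.13, adjusted p = 2.85e-07). Its DOX libraries agreed closely and stood above all DMSO libraries, and it rose by 0.82 in sgNS but was at -0.10 in sgZBTB11-2. MANEA, a Golgi mannosidase, rose by 0.79, FBXL14, a ubiquitin ligase subunit, by 0.79, LMBRD2 by 0.73, TMTC3 by 0.72, the transcription factor ELF1 by 0.71 and KLHL11 by 0.70. All 6 of these rose in sgNS as well, by 0.46 to 0.84. With the length and GC trend removed only FBXL14 (0.52) and KLHL11 (0.67) passed in sgNS, while MANEA, LMBRD2, TMTC3 and ELF1 were at 0.16 to 0.24 there. None of the 6 rose in sgZBTB11-2, where TMTC3 fell by 0.33 (not past the threshold with the trend removed). The readthrough genes ISY1-RAB43 (1.35) and HNRNPUL2-BSCL2 (0.85) and the pseudogenes PSMC1P1 (0.76) and UQCRFS1P1 (0.75) also ranked among the 12 largest, but their counts are estimated splits of reads shared with other genes and are uncertain. The call of HNRNPUL2-BSCL2 was lost when either of 2 libraries was left out.

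The largest decreases after THAP11 were also small in absolute level or in gene families with near-identical copies. ELMO3, an adaptor for the Rac activator DOCK proteins, was at 7.93, 8.53 and 7.69 CPM with DMSO and at 5.36, 4.79 and 3.88 with DOX, a fall of 0.77 (SE 0.13, adjusted p = 6.13e-06). CPT1B, a carnitine palmitoyltransferase of fatty acid oxidation, went from 22.8, 21.4 and 19.9 CPM to 12.3, 13.5 and 12.9, a fall of 0.72 (adjusted p = 1.22e-07). LCAT, an enzyme of lipoprotein cholesterol esterification, went from 31.5, 32.6 and 34.6 CPM to 19.7, 19.4 and 21.5, a fall of 0.71 (adjusted p = 2.79e-11). In these 3 genes every DOX library lay below every DMSO library, all fell in sgNS as well, and all rose in sgZBTB11-2, by 0.46, 0.31 and 0.27, although the rises of CPT1B and LCAT there did not pass with the trend removed. MELTF-AS1 fell by 0.82, AZU1 by 0.78, CALML4 by 0.70 and AMT, the aminomethyltransferase of glycine cleavage, by 0.68. SULT1A3 (-0.73), NPIPB12 (-0.72), FAM156A (-0.74) and the readthrough gene TMEM276-ZFTRAF1 (-0.79) have near-identical copies or shared exons, and their values are uncertain.

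The direction of change followed the length and the GC content of transcripts. Genes were put into 10 bins of equal size. In the bin with the shortest transcripts the median change was -0.15, with 35.2% of genes lower and 1.46% higher, and in the bin with the longest it was 0.15, with 42% higher and 6.6% lower. By GC content the median went from 0.16 in the lowest bin to -0.09 in the highest. The medians of sgNS went the same way over a wider range, from -0.23 to 0.23 over length, and those of sgZBTB11-2 the opposite way, from -0.11 to 0.12 over GC content. The share of counts from mitochondrial DNA moved along, at 14%, 14.1% and 14.1% with DMSO and 12.4%, 12.2% and 12.2% with DOX in sgZBTB11-1, and at 12.5% to 12.7% and 13.1% to 13.4% in sgZBTB11-2. What part the trend has in the changes was not tested, but its size was measured: removing a smooth trend over length and GC from each library left 4375 genes past the threshold (28%), 2209 higher and 2166 lower. Of the 5130 genes, 3307 were called in the same direction in both fits, 1636 higher and 1671 lower, and the largest changes above were taken from these.

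**Figure D2:**
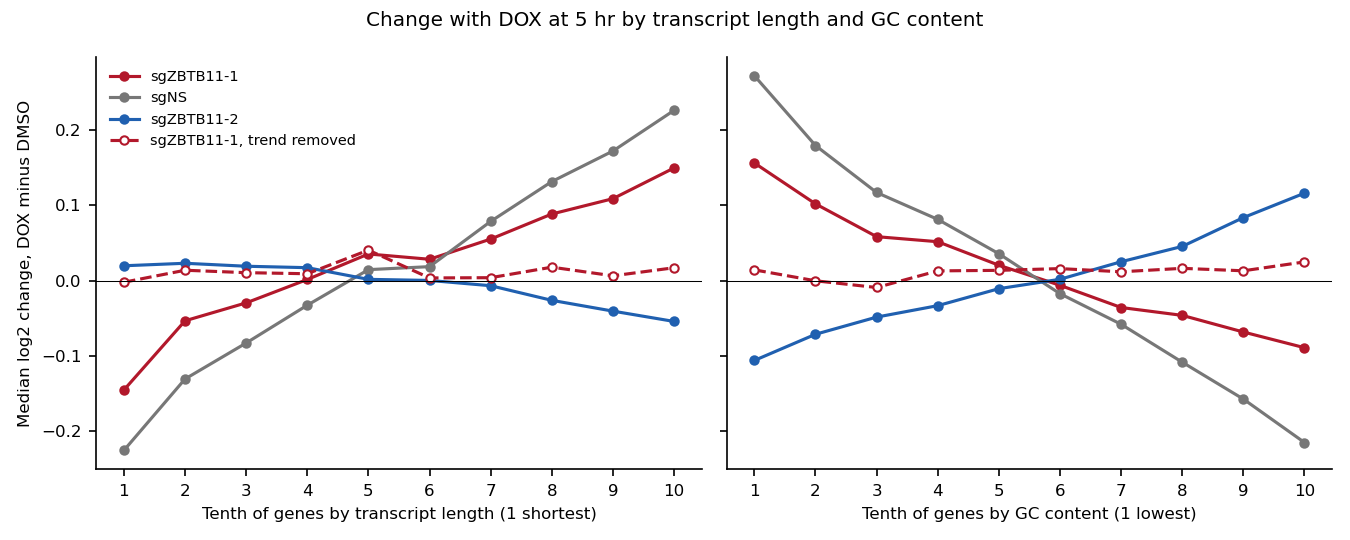
Median log2 change with DOX at 5 hr in 10 bins of genes ordered by transcript length (left) and by GC content (right), for each guide and for sgZBTB11-1 with the trend removed. The line of sgZBTB11-1 goes from -0.15 to 0.15 over length and from 0.16 to -0.09 over GC content, that of sgNS is steeper, and that of sgZBTB11-2 slopes the other way.

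The mRNAs of mitochondrial DNA, which encode core subunits of respiratory complexes and ATP synthase, were lower with DOX. Of the 13, 9 fell and 0 rose, with a median change of -0.25, beside 15.4% lower and a median of 0.0036 over all genes tested. MT-ND4, a complex I subunit, was at 15203, 14816 and 15349 CPM with DMSO and at 12757, 12519 and 12449 with DOX, a fall of 0.27 (SE 0.021, adjusted p = 1.07e-12). The groups lay well apart. MT-CO2 of complex IV fell by 0.35, and MT-ND1 and MT-ND2 of complex I by 0.31 and 0.27. After removal of the length and GC trend 10 of the 13 fell and 0 rose. The same 13 genes had a median of -0.25 in sgNS, with 9 lower, and of 0.07 in sgZBTB11-2, with 5 higher. At day 1 in sgZBTB11-1 their median was -0.03, and 3 were lower.

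Genes for cytosolic ribosomal proteins, which have short transcripts, were lower as well: 63 of 79 fell and 1 rose, with a median of -0.17. RPL34 was at 736, 707 and 709 CPM with DMSO and at 585, 576 and 566 with DOX, a fall of 0.32 (adjusted p = 0.00573), and RPL37A fell by 0.31. With the trend removed 12 fell (15.2%, beside 13.9% of all genes tested) and 9 rose (11.4%, beside 14.1%), shares near those of all genes. The median was then -0.02, so that most of these calls were lost. In sgNS 75 of the 79 fell, and the fall differed from that in sgZBTB11-1 in 36 of the 79, while in sgZBTB11-2 5 rose and 0 fell. Of the nuclear-encoded complex I subunits 23 of 37 fell and 3 rose (median -0.13). With the trend removed 4 fell (10.8%, beside 13.9%) and 5 rose (13.5%, beside 14.1%), again near the shares of all genes. NDUFB2, an accessory subunit, was at 129, 121 and 130 CPM with DMSO and at 108, 103 and 112 with DOX, a fall of 0.24 (adjusted p = 3.08e-06) that became -0.06 with the trend removed. The median of the complex I genes was 0.01 on the TPM scale. In sgNS 29 of the 37 fell and 2 rose (median -0.23), and 11 of the 37 differed between sgZBTB11-1 and sgNS. Mitochondrial ribosomal proteins were split, with 12 of 77 higher (15.6%, beside 17.4% of all genes tested) and 20 lower (26%, beside 15.4%). With the trend removed 18 were higher and 8 lower. Their median of -0.03 in the main fit became 0.07 on the TPM scale. MRPS25 fell from 206, 219 and 222 CPM to 171, 170 and 172, by 0.34 (adjusted p = 5.15e-11), and MRPL44 rose by 0.30. In sgNS at 5 hr 46 of the 77 fell and 5 rose (median -0.15), and 12 of the 77 differed between sgZBTB11-1 and sgNS. At day 1 in sgZBTB11-1, 12 of the 77 were lower and 1 was higher.

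Host genes of small nucleolar RNAs, whose spliced transcripts are decayed in translation, were lower: 18 of 27 fell and 1 rose (median -0.27), and 14 fell and 1 rose with the trend removed. SNHG1 was at 280, 284 and 279 CPM with DMSO and at 228, 226 and 223 with DOX, a fall of 0.32 (SE 0.028, adjusted p = 1.06e-11), whereas in sgNS it was at -0.03, and the difference of -0.28 passed the threshold (adjusted p = 1.07e-05). SNHG12 fell by 0.36, SNHG6 by 0.35 and SNHG25 by 0.46. In sgNS 14 of the 27 host genes fell and 2 rose (median -0.12), and 4 of the 27 differed between sgZBTB11-1 and sgNS. Among 3 nuclear long noncoding RNAs the median change was -0.09. NEAT1, the scaffold of paraspeckles, was at 1299, 1305 and 1300 CPM with DMSO and at 1241, 1228 and 1208 with DOX, a change of -0.09 that did not pass the threshold (adjusted p = 0.0757), although it did in the fit of the 6 libraries alone (adjusted p = 0.00147), in DESeq2 (adjusted p = 0.0417) and in the fit of all 70 libraries (adjusted p = 0.028). In sgNS NEAT1 rose by 0.49, and the difference between the guides was -0.58 (SE 0.052, adjusted p = 6.31e-07). All 3 of these RNAs were past the threshold and lower once the length and GC trend was removed.

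Regulators of splicing fell more often than they rose, with 11 of 22 lower and 2 higher, and 12 and 1 with the trend removed. RBM5, an RNA-binding splicing repressor, was at 157, 163 and 160 CPM with DMSO and at 125, 121 and 122 with DOX, a fall of 0.38 (adjusted p = 3.04e-11). CLK2, a kinase of SR splicing factors, fell by 0.36 and CLK3 by 0.25, and LUC7L, a component linked to the U1 particle, by 0.26. All 4 rose in sgZBTB11-2, by 0.14 to 0.37. The median of the 22 was -0.07 and became 0.03 on the TPM scale, where the median of all genes was 0.08. Among 410 genes named ZNF, 73 fell (17.8%, beside 15.4% of all genes tested) and 48 rose (11.7%, beside 17.4%), and 93 fell (22.7%, beside 13.9%) and 27 rose (6.59%, beside 14.1%) with the trend removed. The direction of the ZNF genes turned on the TPM scale, where 56 rose and 20 fell and the median of -0.02 became 0.06. Among 37 ZBTB genes 8 rose (21.6%, near the share of all genes) and 1 fell (2.7%), and 2 rose and 5 fell (13.5%, beside 13.9%) with the trend removed.

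**Figure D3:**
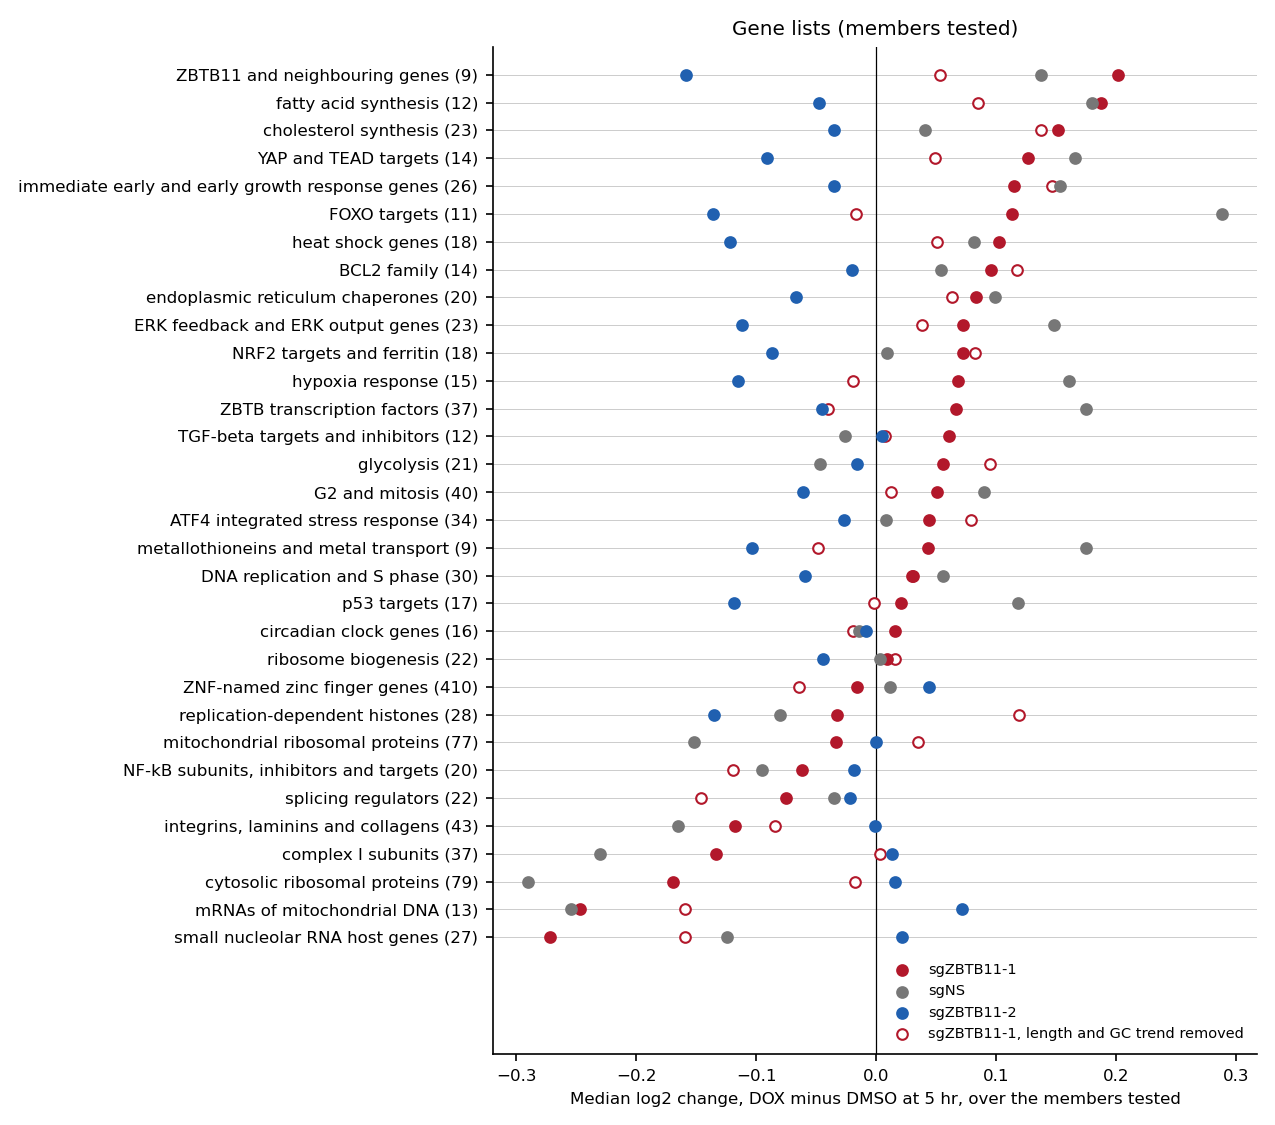
Median log2 change with DOX at 5 hr over the tested members of 32 gene lists (number tested in brackets), for each guide as filled points and for sgZBTB11-1 after removal of the length and GC trend as open points. Host genes of small nucleolar RNAs, mRNAs of mitochondrial DNA and cytosolic ribosomal proteins are lowest in sgZBTB11-1 (-0.27, -0.25 and -0.17), and the points of sgZBTB11-2 lie across 0 for most lists that moved.

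Immediate early genes, which growth factor signals induce within minutes, rose more often than they fell. Of 26, 13 rose (50%, beside 17.4% of all genes tested) and 2 fell (median 0.12), and 14 rose and 0 fell with the trend removed. EGR3 was at 5.85, 4.20 and 5.58 CPM with DMSO and at 8.64, 8.61 and 7.55 with DOX, a rise of 0.66 (SE 0.12, adjusted p = 3.88e-05) that was also seen at day 1 (0.57). KLF6 was at 120, 130 and 126 CPM with DMSO and at 152, 155 and 150 with DOX, a rise of 0.28 (adjusted p = 1.23e-08). In both genes every DOX library stood above every DMSO library. NR4A1, an orphan nuclear receptor, rose by 0.23 where it fell by 0.26 in sgNS, a difference of 0.49 (adjusted p = 0.00312). EGR1 rose by 0.17 from 463 ± 3.18 to 522 ± 16.1 CPM (SD, n = 3 each), beside 0.48 in sgNS. In sgNS 15 of the 26 rose and 3 fell (median 0.15), and 9 of the 26 differed between sgZBTB11-1 and sgNS. KLF6 rose more in sgNS (difference -0.17), though not past the threshold with the trend removed. Of 23 genes for feedback and output of the kinase ERK 9 rose and 1 fell (median 0.07), and 7 rose and 1 fell with the trend removed (median 0.04). In sgNS 10 of the 23 rose and 3 fell (median 0.15). EREG, a ligand of the EGF receptor, rose from 167, 152 and 152 CPM to 206, 204 and 186, by 0.35 (adjusted p = 8.42e-06). The ERK inhibitors SPRY1 and SPRED1 rose by 0.31 and 0.34, the call of SPRED1 being lost with the trend removed. SPRED1 rose more in sgNS (difference -0.43), though not past the threshold with the trend removed. SPRY4, of the same family as SPRY1, was at 374, 380 and 382 CPM with DMSO and at 317, 321 and 327 with DOX, a fall of 0.24 (adjusted p = 6.9e-09), and the difference from sgNS was -0.23 (adjusted p = 0.000125). Of 14 targets of YAP and TEAD 7 rose (50%) and 0 fell, led by CRIM1 (0.43) and AMOTL1 (0.32). With the trend removed 2 rose (14.3%, near the 14.1% of all genes tested), and AMOTL1 did not pass. In sgNS 6 of the 14 rose and 1 fell.

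In the list of NF-kB subunits, inhibitors and targets more genes fell than rose. Of 20 genes 9 fell and 2 rose (median -0.06, and 0.01 on the TPM scale), and 9 fell and 4 rose with the trend removed. NFKBIA, which holds NF-kB in the cytoplasm and is itself induced by it, was at 126, 130 and 127 CPM with DMSO and at 92.3, 89.1 and 90.9 with DOX, a fall of 0.49 (SE 0.036, adjusted p = 2.23e-13). All DOX libraries lay below all DMSO libraries, and the fall was larger than in sgNS by the test of the difference (-0.21, adjusted p = 0.0122). TRAF1 fell by 0.42, BCL3 by 0.32 (lost with the trend removed) and CXCL1 by 0.25, and the call of TNFAIP3 (-0.39) was lost when any of 4 libraries was left out. NFKB1, which encodes a subunit of NF-kB, rose by 0.24 from 22.9 ± 0.846 to 27.1 ± 1.01 CPM (SD, n = 3 each). In sgNS 6 of the 20 genes fell and 1 rose (median -0.09), and 1 of the 20, NFKBIA, differed between sgZBTB11-1 and sgNS. Of 12 targets and inhibitors of TGF-beta 3 rose (25%, beside 17.4% of all genes tested) and 2 fell (16.7%, beside 15.4%), shares near those of all genes. LTBP2, a matrix protein of the family of latent TGF-beta binding proteins, went from 40.4, 44.2 and 43.2 CPM to 31.9, 32 and 33.8, a fall of 0.39 (adjusted p = 2.38e-07) that was not past the threshold on the TPM scale. Without DMSO replicate 3 of sgZBTB11-1 3 of the 5 calls in this list were left.

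Genes of lipid synthesis rose more often than they fell. Of 23 genes of cholesterol synthesis 12 rose (52.2%, beside 17.4% of all genes tested) and 1 fell, with a median of 0.15, and the counts were the same with the trend removed. DHCR7, an enzyme of the last steps of cholesterol synthesis, was at 44.7, 49.8 and 46.4 CPM with DMSO and at 55.8, 61.7 and 61.4 with DOX, a rise of 0.34 (SE 0.049, adjusted p = 7.29e-07). Every DOX library lay above every DMSO library. SC5D rose by 0.33 and MSMO1 by 0.31. Of 12 genes of fatty acid synthesis 7 rose and 1 fell (median 0.19), and 4 rose and 1 fell with the trend removed. SCD, the stearoyl-CoA desaturase, was at 446, 447 and 449 CPM with DMSO and at 557, 557 and 559 with DOX, a rise of 0.32 (SE 0.025, adjusted p = 5.81e-13), and FADS1 rose by 0.30. FASN, the fatty acid synthase, was the 1 gene of this list that fell, from 471, 498 and 501 CPM to 403, 417 and 434, by 0.23 (adjusted p = 6.8e-05), and it fell by 0.15 at day 1 (adjusted p = 0.00302). The 3 libraries of each group hardly differed in SCD, and it fell by 0.23 in sgZBTB11-2. In sgNS 10 of the 23 cholesterol synthesis genes rose and 3 fell (median 0.04), and 3 of the 23 differed between sgZBTB11-1 and sgNS. Of the 12 fatty acid synthesis genes 6 rose and 2 fell in sgNS (median 0.18), and 1 differed. At day 1 in sgZBTB11-1 the median of the cholesterol synthesis genes was -0.03.

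Stress lists had calls in both directions. Of 34 genes of the integrated stress response 8 rose (23.5%, beside 17.4% of all genes tested) and 3 fell (8.82%, beside 15.4%), with the amino acid transporter SLC7A5 at 200, 206 and 203 CPM with DMSO and 234, 252 and 257 with DOX (0.29, adjusted p = 2.2e-05) and the pseudokinase TRIB3 up by 0.26. ATF4, the transcription factor of this response, went the other way, from 387, 376 and 383 CPM to 316, 317 and 333, a fall of 0.25 (SE 0.028, adjusted p = 4.3e-09), as it did in sgNS (-0.26). Its target DDIT3 fell by 0.21, a call that was lost when any of 3 libraries was left out and with the trend removed. Of 20 chaperones and quality control genes of the endoplasmic reticulum 11 rose (55%) and 2 fell (8 and 1 with the trend removed), with SEL1L up by 0.44 and EDEM1 by 0.27. Of 18 heat shock genes 9 rose (50%) and 3 fell (7 and 2 with the trend removed). STIP1 rose by 0.17 and DNAJA1 by 0.18, whereas the small heat shock protein HSPB1 fell by 0.21, a call lost with the trend removed. Of 18 NRF2 targets 6 rose (33.3%, beside 17.4% of all genes tested) and 4 fell (22.2%, beside 15.4%). Among them GCLM, a subunit of glutathione synthesis, was up by 0.32. The metallothioneins, small metal-binding proteins with short transcripts, fell: MT2A, MT1E and MT1X by 0.34, 0.35 and 0.38, whereas the zinc exporter SLC30A1 rose by 0.42, and with the trend removed these 3 falls did not pass while SLC30A1 did. In sgNS 10 of the 20 endoplasmic reticulum genes rose and 3 fell, and 1 of the 20 differed between sgZBTB11-1 and sgNS. Of the 18 heat shock genes 10 rose and 2 fell in sgNS, and 4 differed. Of the 34 integrated stress response genes 7 rose and 6 fell in sgNS, and 3 differed. Of the 18 NRF2 targets 4 rose and 7 fell in sgNS, and 6 differed.

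Metabolic and cell cycle lists were also split, and several had shares near the 17.4% higher and 15.4% lower of all genes tested. Of 21 glycolysis genes 8 rose and 3 fell (10 and 2 with the trend removed), and 7 genes in all passed without DMSO replicate 2 of sgZBTB11-1. In sgNS 4 of the 21 rose and 8 fell (median -0.05, beside 0.06 in sgZBTB11-1), and 9 differed between sgZBTB11-1 and sgNS. PKM, pyruvate kinase, rose by 0.27 (SE 0.03, adjusted p = 5.11e-09), which was more than in sgNS (difference 0.20, adjusted p = 0.0022), HK1 rose by 0.26 and the neuronal enolase ENO2 fell by 0.28. Of 15 hypoxia genes 3 rose (20%) and 1 fell (6.67%). Of 30 genes of DNA replication 8 rose and 5 fell, with POLE, the leading strand polymerase, at 179, 198 and 197 CPM with DMSO and 151, 156 and 161 with DOX (-0.29, adjusted p = 1.21e-06), and 8 in all passed without DMSO replicate 2. Of 40 genes of mitosis 12 rose and 8 fell (5 and 9 with the trend removed), with AURKB, the kinase of the chromosomal passenger complex, down from 121, 114 and 115 CPM to 91.3, 90.1 and 94.6, a fall of 0.35 (adjusted p = 6.96e-10). Of 28 replication-dependent histone genes, whose mRNAs mostly lack poly(A) tails, 1 fell and 0 rose, and the median of -0.03 became 0.12 both with the trend removed and on the TPM scale. Of 43 integrins, laminins and collagens 14 fell and 9 rose (7 and 10 on the TPM scale), with COL7A1 down by 0.50 and COL11A2 by 0.45. Of 17 p53 targets 4 rose (23.5%) and 3 fell (17.6%), with RRM2B up by 0.56 and DDB2 down by 0.34, and of 14 BCL2 family genes 3 rose (21.4%), with PMAIP1, the BH3-only protein NOXA, up by 0.34 and BAK1 by 0.20.

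Whether the change belongs to the ZBTB11 guide was addressed by testing it against the change in sgNS, which shares no library with it. The difference passed the threshold in 1083 of 15623 genes (6.93%), 573 above (3.67%) and 510 below (3.26%). That count was 566 after removal of the length and GC trend and 534 in DESeq2, and it went to 704 without sgZBTB11-1 DOX replicate 3, 690 without sgNS DOX replicate 1 and 719 without sgNS DOX replicate 3. On the TPM scale 96 genes were above and 730 below, with a median over all genes of -0.09 (-0.11 with a pseudocount of 0.1), and in 1 fit of all 70 libraries 708 were above and 395 below. Of the 2717 genes that rose in sgZBTB11-1, 1944 rose in sgNS (71.6%, beside 20.9% of all genes tested) and 63 fell. Of the 2413 that fell, 1770 fell in sgNS (73.4%, beside 20.1%) and 26 rose. The genes called alike were 72.4% of the calls in sgZBTB11-1 and 58.1% of the 6395 calls in sgNS (40.9% of genes tested). Across 10788 genes whose mean CPM reached 5 both changes had a Pearson r of 0.77, and of 0.69 with the trend removed, as a description across genes, which share the length and GC trend and are not independent.

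The largest differences from sgNS are given for genes that were past the threshold in sgZBTB11-1 itself and in the test of the difference, with and without the trend, at a mean CPM of at least 5, which leaves out NEAT1. LRFN3, a synaptic adhesion protein, was at 8.22, 10.3 and 9.40 CPM with DMSO and at 15.4, 13.1 and 14.9 with DOX, a rise of 0.64 (adjusted p = 7.05e-07), beside 0.01 in sgNS, and the difference was 0.62 (SE 0.13, adjusted p = 0.00154). DCTPP1, a dCTP pyrophosphatase, rose from 33.1, 31.7 and 31.2 CPM to 38.7, 40 and 41.9, by 0.33, and fell by 0.19 in sgNS (difference 0.51, adjusted p = 6.18e-06). In both genes the DOX libraries of sgZBTB11-1 lay above its DMSO libraries. The difference was 0.54 for ZNF689 and 0.49 for UBTD1, whose own rises were not past the threshold without some single libraries (3 for ZNF689 and 2 for UBTD1). Below sgNS were a pair of host genes of microRNAs. MIR17HG, which carries an oncogenic microRNA cluster, was at 10.3, 9.69 and 10.1 CPM with DMSO and at 6.91, 8.61 and 7.62 with DOX, a fall of 0.38 where it rose by 0.37 in sgNS (difference -0.76, SE 0.15, adjusted p = 0.0012). MIRLET7A1HG, a host of let-7 microRNAs, went from 18.1, 14.9 and 14.5 CPM to 12.4, 11.8 and 10.9, a fall of 0.43, beside 0.13 in sgNS (difference -0.56, adjusted p = 0.0131). FAM95B1 differed by -0.62, and FAR1, an enzyme of ether lipid synthesis, by -0.45, with a change in sgZBTB11-1 that was 0.15, was not past the threshold without any of 4 libraries, and became -0.11 with the trend removed.

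**Figure D4:**
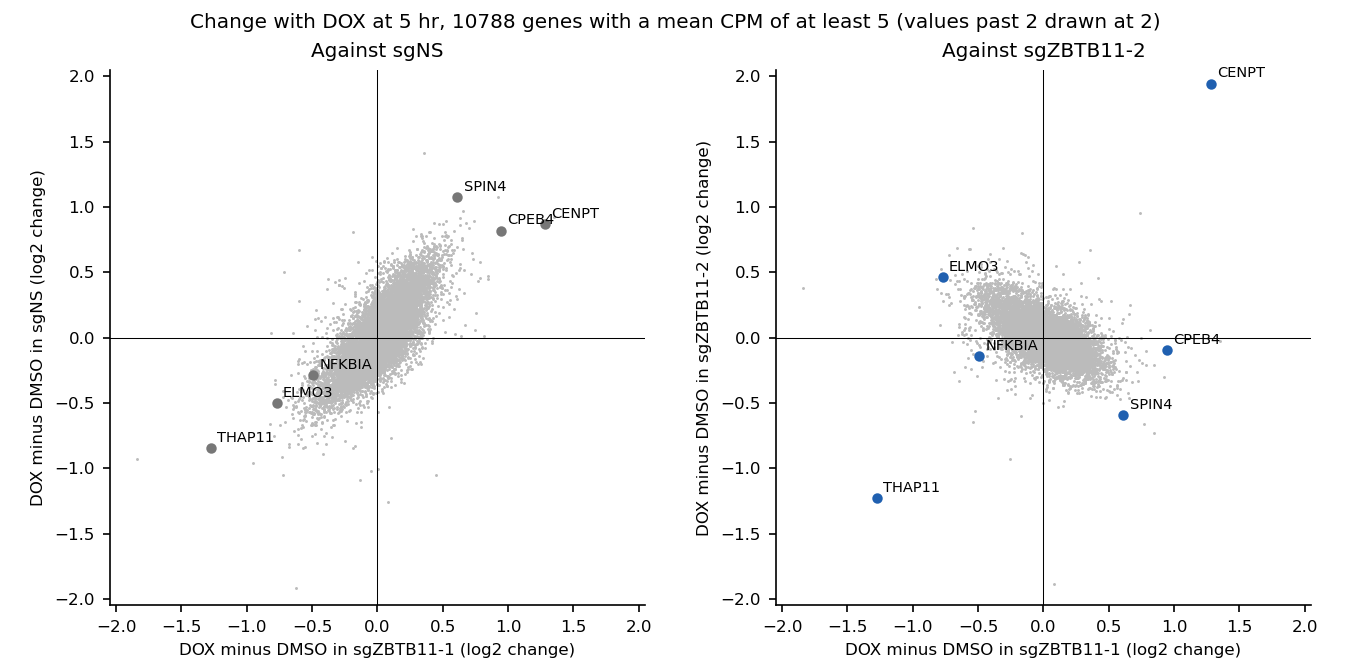
Log2 change with DOX at 5 hr in sgZBTB11-1 (horizontal) against the change in sgNS (left) and in sgZBTB11-2 (right), for 10788 genes whose mean CPM reached 5. The cloud rises against sgNS and falls against sgZBTB11-2, and CENPT and THAP11 lie away from it in the same corners of both panels.

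Against the other guide for the same gene, the change was mostly reversed. The difference from sgZBTB11-2 passed the threshold in 5478 genes (35.1%), 2868 above (18.4%) and 2610 below (16.7%), and on the TPM scale in 3256 above and 1006 below, where the median over all genes was 0.10 (0.12 with a pseudocount of 0.1). Of the 2717 genes that rose in sgZBTB11-1, 890 fell in sgZBTB11-2 (32.8%, beside 8.67% of all genes tested) and 33 rose (1.22%, beside 8.35%). Of the 2413 that fell, 886 rose (36.7%) and 36 fell (1.49%). The 1776 genes called in opposite directions were 34.6% of the calls in sgZBTB11-1 and 66.8% of the 2659 calls in sgZBTB11-2 (17% of genes tested), and across the 10788 genes the Pearson r was -0.56, and -0.49 with the trend removed. SPIN4, a histone methylation reader, was at 7.36, 6.03 and 6.80 CPM with DMSO and at 11.1, 9.96 and 9.83 with DOX in sgZBTB11-1, a rise of 0.61, and fell by 0.59 in sgZBTB11-2 (difference 1.21, SE 0.2, adjusted p = 7.13e-06). PHF6, a chromatin protein, rose from 20.8, 22.1 and 21.2 CPM to 34.7, 33.7 and 32.2 and fell by 0.47 in sgZBTB11-2 (difference 1.12), and OSBPL8, a lipid transfer protein, rose by 0.65 and fell by 0.43 (difference 1.08). These 3 genes rose in sgNS too, by 0.76 to 1.07. In the opposite direction, ADAM1A fell by 0.66 and rose by 0.69 in sgZBTB11-2 (difference -1.35, adjusted p = 4.59e-06), and MELTF-AS1 differed by -1.27, the pseudogene UBE2Q2P1 by -1.37 and the complement gene C4A, which has a near-identical copy, by -1.25. The change of C4A in sgZBTB11-1 was -0.57 and became 0.03 on the TPM scale. The DMSO libraries of the guides differed as well in the share of mitochondrial counts, which was 12.5% to 12.7% in sgZBTB11-2, near the DOX libraries of sgZBTB11-1, and 13.7% to 14.3% in sgNS, and the part of these libraries in the reversal was not tested.

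At day 1 fewer genes were changed in the same cells. DOX changed 787 of 16275 genes (4.84%), 267 higher (1.64%) and 520 lower (3.2%), and 420 to 543 genes when any 1 of the 6 libraries was left out. Of the 2717 genes higher at 5 hr, 72 were higher at day 1 (2.65%) and 126 lower (4.64%), and of the genes lower at 5 hr 121 were lower (5.03%) and 55 higher (2.29%). The change at 5 hr differed from that at day 1 in 3599 of 18061 genes (19.9%), 2150 above (11.9%) and 1449 below (8.02%). CENPT was at 93.6 ± 3.4 CPM with DMSO and 316 ± 6.6 with DOX at day 1 (SD, n = 3 each), a rise of 1.76, which was larger than at 5 hr by the test of the difference (-0.46, adjusted p = 3.17e-08). THAP11 fell by 1.15 at day 1, and its difference between times was -0.11 (adjusted p = 0.571). SLC25A36 rose by 0.71, EGR3 by 0.57 and NR4A1 by 0.37 at day 1, each called in the same direction at 5 hr. SCD, which rose at 5 hr, fell by 0.10 at day 1 (difference 0.44, adjusted p = 9.41e-19), and DCTPP1 fell by 0.23 (difference 0.57). CPEB4 had a change of 0.30 at day 1 (adjusted p = 0.302), and its difference of 0.66 passed (adjusted p = 0.0185). FBXL19-AS1 and UBXN8, which rose with DOX at day 1 by 1.18 and 0.86, were at -0.20 (adjusted p = 0.0101) and -0.10 (adjusted p = 0.521) at 5 hr.

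**Figure D5:**
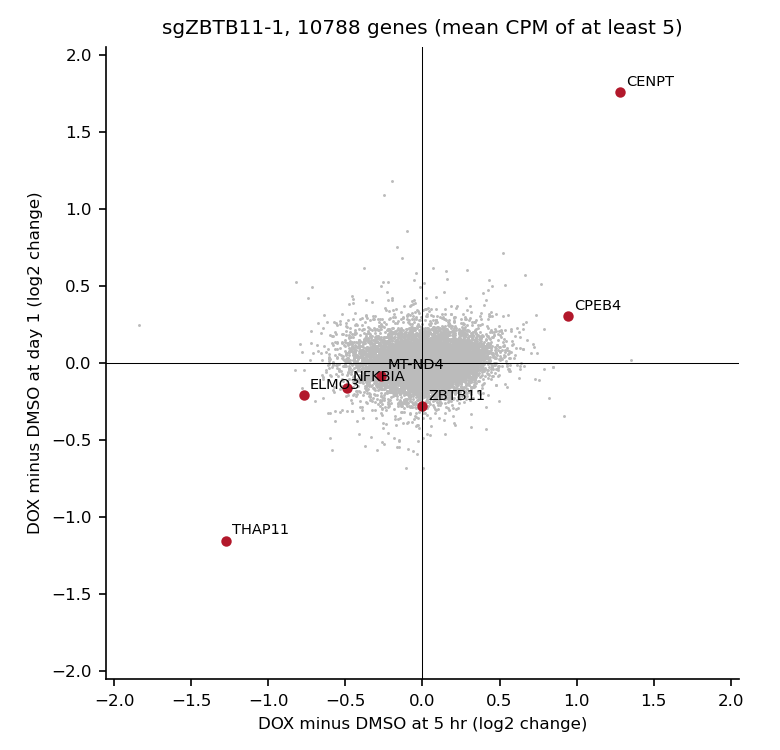
Log2 change with DOX in sgZBTB11-1 at 5 hr (horizontal) and at day 1 (vertical) for 10788 genes whose mean CPM reached 5. Most genes lie in a flat cloud, wide at 5 hr and narrow at day 1, while CENPT (1.28 and 1.76) and THAP11 (-1.28 and -1.15) lie far out at both times.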

How the data were processed

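RNA was extracted from the cells, poly(A) RNA was made into libraries and sequenced, per the labels' protocols. Expected counts and TPM, each for every gene and library, were deposited by the authors. The submitters' processing notes name RSEM and GRCh38.p14. The aligner, annotation and strand handling were not given in the sources used here. Each table lists 78932 genes, and 33163 of these were without a count, and the number of columns from other samples was 0. The deposited expected counts were rounded to whole numbers (5.13% of values were not whole, with no tolerance).

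Groups were taken from titles. In edgeR 4.0.16 (R 4.3.3), genes were filtered with filterByExpr, libraries were scaled by TMM, and robust quasi-likelihood F tests were run with a mean per group in the 18 libraries of 5 hr, in the libraries of day 1, and, for 5 hr against day 1, in all 70 libraries. The fits were tested on simulated counts with known changes. Benjamini-Hochberg adjustment ran over all genes tested, and the threshold was 0.05. For the trend, the deviation of each library from the gene's mean log2 CPM was fitted by natural splines with 4 df on transcript length, from the ratio of deposited count to TPM, and on GC content of the longest GENCODE transcript, over 13016 genes, and used as an offset. The build of that annotation gives names and sequence properties only, and 1278 tested genes without them took the median. DESeq2 1.42.0 and limma 3.58.1 on log2(TPM + 1), for genes that reached a TPM of 1 in 3 libraries or more, were alternatives, and log2 changes on that scale understate those of low genes.

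Pairs of libraries within the 5 hr groups gave a chi-square per degree of freedom of 1.33 to 4.86, with 0 identical pairs of 18. The values 4.62 and 4.86 came from pairs with replicate 3 of sgNS DMSO, whose other libraries gave 1.65. The highest value in another group was 2.48, in sgZBTB11-2 DMSO. Without that sgNS library the difference from sgNS passed the threshold in 1059 genes, beside 1083. Promoters and gene positions are from RefSeq. Named genes were the 12 largest changes in each direction among genes with a symbol and a mean CPM of at least 5 that also passed with the trend removed, the 4 largest differences in each direction from each other guide, ZBTB11, its neighbours and 5 genes of the later DOX response, and up to 4 members of each of 37 lists, or 2 where none passed. EGR1, CD68, NFKB1, CXCL1, FASN, ENSG00000302966 and the genes called alike in all 3 guides were named after their values were seen. Some genes that the rule selects are not reported here. The members, lists and rule were chosen with earlier results of these data known.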

Additional observations from a re-analysis of the deposited data

Results flagged for a closer look

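The difference in the DOX change between sgZBTB11-1 and sgNS was past the threshold of edgeR's quasi-likelihood test for 1083 genes, and that between sgZBTB11-1 and sgZBTB11-2 for 5478. Named genes listed here differ between guides by the test of that difference itself, and values are log2 changes in sgZBTB11-1 minus those in the other guide. Groups of 3 libraries were not tested for outliers.

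Against sgNS the change was higher in CENPT (0.41), UQCRFS1P1 (0.69), LRFN3 (0.62), ZNF689 (0.54), DCTPP1 (0.51), UBTD1 (0.49), NR4A1 (0.49) and HSPB1 (0.16). Also higher than in sgNS were TKT (0.16), MT1E (0.14) and PKM (0.20). Against sgNS it was lower in THAP11 (-0.43), NPIPB12 (-0.32), MIR17HG (-0.76), FAM95B1 (-0.62), MIRLET7A1HG (-0.56), FAR1 (-0.45), PHF6 (-0.31), SLC25A36 (-0.19) and KLF6 (-0.17). Also lower than in sgNS were SPRED1 (-0.43), SPRY4 (-0.23), NFKBIA (-0.21), SNHG1 (-0.28) and NEAT1 (-0.58).

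Genes called in opposite directions with the guides, higher in sgZBTB11-1, were TMTC3 (1.05), FAR1 (0.46), SPIN4 (1.21), PHF6 (1.12), OSBPL8 (1.08), TRMT10C (0.37), PCNP (0.40), KLF6 (0.53) and BTG2 (0.51). To these were added EREG (0.64), SPRED1 (0.73), SPRY1 (0.64), CRIM1 (0.75), FJX1 (0.39), NR1D2 (0.73), DNAJA1 (0.33) and GCLM (0.65). Further such genes were HMOX1 (0.62), SLC30A1 (0.77), RRM2B (0.92), MSMO1 (0.66), SCD (0.55), FADS1 (0.48), EGLN1 (0.30) and ERO1A (0.28). The last of these were WDR43 (0.36), MCM10 (0.47), PMAIP1 (0.60) and BAK1 (0.37). Called in opposite directions and lower in sgZBTB11-1 were MELTF-AS1 (-1.27), ELMO3 (-1.23), SULT1A3 (-1.06), CPT1B (-1.03), NPIPB12 (-0.97), LCAT (-0.97), AMT (-1.09), UBE2Q2P1 (-1.37) and ADAM1A (-1.35). Others lower in sgZBTB11-1 and higher in sgZBTB11-2 were C4A (-1.25), LTBP2 (-0.56), MLXIPL (-0.88), HSPB1 (-0.29), ENO2 (-0.43), MT-ND4 (-0.35), MRPS25 (-0.49), NOP2 (-0.38) and RBM5 (-0.61). The remaining ones were CLK2 (-0.74), LUC7L (-0.40), CLK3 (-0.47), POLE (-0.66), COL7A1 (-0.80) and COL11A2 (-0.75).

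With the length and GC trend removed, 7 of the 25 differences from sgNS did not pass the threshold: UQCRFS1P1 (0.61, adjusted p = 0.0585), PHF6 (-0.17), SLC25A36 (-0.06), KLF6 (-0.10), SPRED1 (-0.31), HSPB1 (0.02) and MT1E (0.11). Of the 53 differences from sgZBTB11-2, 3 did not pass, in FAR1 (0.03, adjusted p = 0.726), HSPB1 (0.05) and ERO1A (0.04), and FAR1 was then called lower with both guides. In 19 more the difference passed but the calls were no longer opposite, and 31 kept opposite calls. The share of counts from mitochondrial DNA also moved with these contrasts, and its part in them was not tested.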

How the results depend on the processing

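The count of genes changed by DOX in sgZBTB11-1 at 5 hr, 5130, was between 3543 and 5263 under the alternatives, and 4288 to 4747 when any 1 of its 6 libraries was left out. The main fits used no replicate block, since the labels do not say whether replicate numbers pair the libraries. In sgZBTB11-1 the correlations of same-numbered deviations were 0.15, -0.01 and 0.08, and those of different numbers were -0.16 to 0.07. With 3 libraries a group these values cannot decide whether the libraries were paired. With the replicate block 5263 genes passed at 5 hr, 1266 for the difference from sgNS, 5596 for that from sgZBTB11-2, 768 at day 1 and 3600 between the times, and 4449 with the block and the trend removed.

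The difference from sgNS, 1083 genes, was 566 after removal of the length and GC trend, 704 after removal of the length trend alone, 534 in DESeq2, 490 in limma on unfiltered log2(TPM + 1), and 690 to 1103 when 1 library was left out. The difference from sgZBTB11-2, 5478 genes, was 3478 on the unfiltered TPM scale and 4987 to 5377 with 1 library left out. Day 1 gave 420 to 543 genes with 1 library left out, beside 787. The cause of these shifts was not tested.

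ZBTB11 was at -0.13 with the trend removed and at -0.13 with the block and the trend removed, at 0.15 on the TPM scale, 0.16 with a pseudocount of 0.1 and 0.15 unfiltered, and at -0.034 to 0.024 with 1 library left out.

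Other named genes changed sign in some alternative. On the TPM scale, with a pseudocount of 1 whether filtered or not, C4A was at 0.027, RPL24 at 0.045, NFKBIZ at 0.0092, UBXN8 at 0.013, ID1 at 0.047, E2F2 at 0.034 and H2BC12 at 0.15, and with a pseudocount of 0.1 these were 0.026, 0.045, 0.011, 0.014, 0.047, 0.041 and 0.15. KCNQ1OT1 was at 0.0098 unfiltered. Once the length and GC trend was removed FAR1 was at -0.11, RPL24 at 0, ID1 at 0.015, ERO1A at -0.022, NDUFA1 at 0.0032 and H2BC12 at 0.0024, and with the block as well FAR1 was at -0.11, RPL24 at 0.0004, ID1 at 0.016, ERO1A at -0.020 and NDUFA1 at 0.0033. RPL24 was at 0.049 with the length trend alone removed. ZBTB11-AS1 was at -0.078 to 0.18 with 1 library left out, the lowest without DOX replicate 2.

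Of 166 named genes past the threshold, 128 were still past it, in the same direction, without any 1 library, 76 were so under all alternatives, and 8 changed sign in at least 1. The calls lost when single libraries were left out included those of NXPE3 and CD68, of low level, and of the abundant RPL24. Among the genes listed as called in opposite directions between guides they included those of FAR1, BTG2, FJX1, HMOX1 and UBE2Q2P1 in sgZBTB11-1. What part depth had in these losses was not tested.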
